A study of Mus musculus with 6 samples.

Results

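The genes described here are 10 mouse genes known as markers of mural cells, the pericytes and smooth muscle cells that wrap blood vessels: Cspg4, Pdgfrb, Notch3, Mcam, Rgs5, Des, Acta2, Tagln, Cnn1 and Myh11. They were chosen by name from the 37991 genes listed in the files, and all 10 were found. No threshold on a value was used, but the list was drawn up with the differences between null and wild-type levels in these libraries known, so counts and tests over it are a description and no independent evidence. RNA was sequenced from tumours of a mouse line of cutaneous squamous cell carcinoma (cSCC), a cancer of skin keratinocytes. Null tumours (genotype Kindlin-1 Null, 3 libraries) carry a Kindlin-1 knockout, and wild-type tumours (genotype Kindlin-1 WT, 3 libraries) express the protein, an adaptor of integrin tails whose gene is Fermt1. The sources used here do not give the strain and age of the mice, the tumour site or the number of cell clones.

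Pericytes sit on capillaries and depend on platelet-derived growth factor signalling from endothelial cells, which acts through the receptor PDGFRB. Smooth muscle cells surround larger vessels and carry a contractile apparatus of smooth muscle actin, myosin, calponin and transgelin, whose genes are classical targets of serum response factor (SRF) and its partner myocardin. Several of these genes are used outside mural cells as well: activated fibroblasts make Acta2 and Tagln, skeletal muscle makes Des, endothelial cells make Mcam, and melanocytes and glial precursors make Cspg4. In bulk tumour RNA, fewer cells of a type and less RNA per cell cannot be told apart.

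Reads assigned to genes ranged from 1138318 to 31487255 in the null libraries and from 161711 to 15529242 in the wild-type libraries. A floor of 3 reads stood between 0.0953 and 2.64 counts-per-million units (CPM) in null and between 0.193 and 18.6 CPM in wild-type libraries, the last in wild-type library 2. Wild-type libraries 1 and 2 carry 1 mouse number in their titles (238), as do null libraries 2 and 3 (242), so 3 libraries may be fewer than 3 animals and p-values measure the spread between libraries only. The targeted gene Fermt1 had 0, 2 and 2 reads in null libraries 1 to 3, against 16, 2 and 1040 reads in wild-type libraries 1 to 3 (edgeR adjusted p = 0.000297). Its 2 reads in wild-type library 2 lie under the floor. Keratinocyte markers were low throughout: 10 of them summed to between 46.8 and 94.9 CPM in null tumours and between 67.5 and 135 CPM in wild-type tumours, and Krt14, a basal keratin and 1 of 6 tested, fell (log2 fold change -2.04, edgeR adjusted p = 0.01; 0.0502 in limma-voom with the mouse as a random effect), with 0 called higher (0 also at an unadjusted p under 0.05, by DESeq2 and by limma-voom). Endothelial markers were present in every library, with 16 of them summing to between 423 and 522 CPM in null and between 366 and 526 CPM in wild-type tumours.

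The mural genes did not move together. Cspg4 and Des were about an order of magnitude lower in null tumours, Notch3 was lower by less, and Acta2, Pdgfrb, Rgs5 and Mcam overlapped between the groups. Tagln lay below wild type in all 3 null libraries without passing the test. Of the markers of mature smooth muscle, Cnn1 was near the detection floor in both groups and Myh11 was low, with at most 36 reads in a library, and Myocd, which encodes myocardin, had 0 reads in all 6 libraries. Acta2 and Tagln, the smooth muscle genes at higher levels, are also made by other cells. Of the 10 genes, 8 passed the filter on low counts. Among these 8, 3 were called lower in null tumours and 0 higher (edgeR quasi-likelihood test, Benjamini-Hochberg adjusted p under 0.05 over 11887 genes), against 3.52% called lower, 2.26% higher and 5.79% either way over all genes tested. At an unadjusted p under 0.05 edgeR gave 4 lower and 0 higher, against 25.1% of all tested genes either way, and DESeq2 and limma-voom each gave 2 lower and 0 higher after adjustment. In 4 of the 8 all null libraries lay below all wild-type libraries, against 14.3% of all tested genes, with 30.5% apart in either direction. Since the list was drawn up with these differences known, nothing is read from its counts. The median log2 fold change of the 8 was -0.84, against 0.01 over all tested genes.

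**Figure D1:**
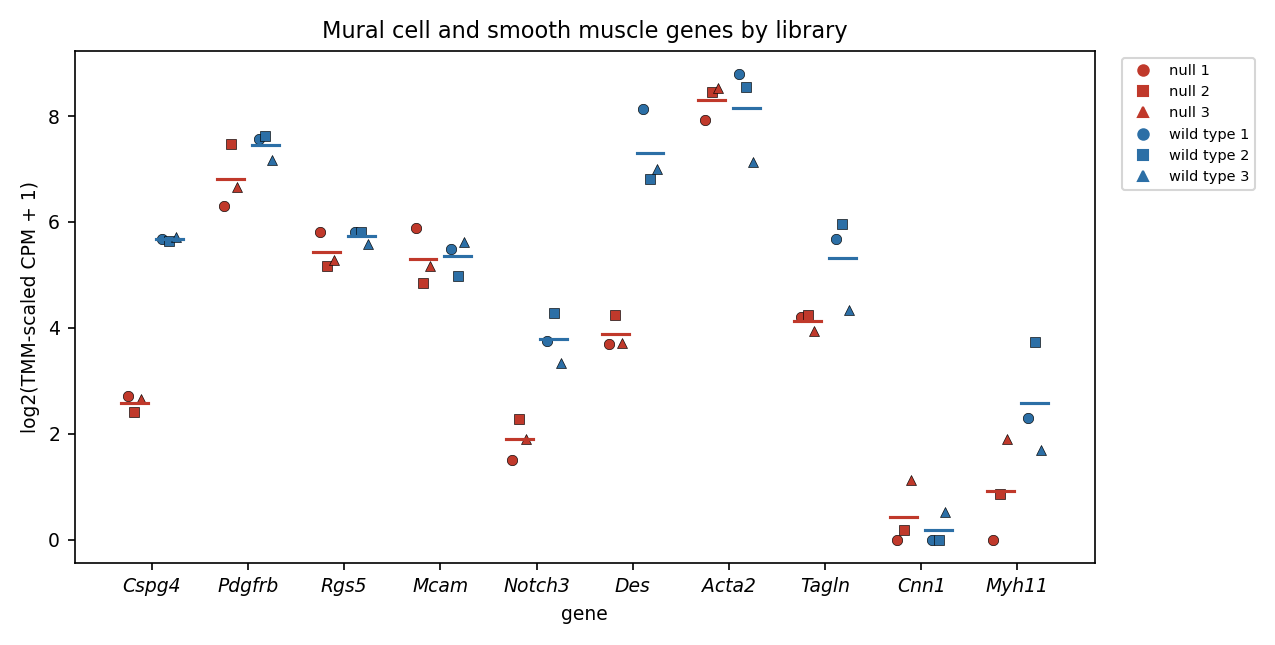
Level of each gene in each library, as log2 of TMM-scaled CPM plus 1, with null libraries in red to the left of wild-type libraries in blue and a line at the mean of the plotted values. Cspg4, Notch3, Des and Tagln show null points that all lie below the wild-type points, while the other genes overlap, and Cnn1 lies at the bottom of the scale in both groups.

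The promoters of the 3 genes that were called lower and of Acta2, the most abundant gene of the list, are shown for the 250 bases before the RefSeq gene start (build GRCm38.p6), 5′ to 3′ on the coding strand. Capitals mark matches on either strand to CAGCTG (the E-box form bound by myogenic factors), to TGGGAA (the core of the Notch effector RBPJ), to the CArG box (the SRF site, searched by its usual consensus) or to a CArG box with 1 other letter in its core. The windows are chr1:75360042-75360291 (plus strand) for Des, chr9:56864854-56865103 (plus) for Cspg4, chr17:32166891-32167140 (minus) for Notch3 and chr19:34255374-34255623 (minus) for Acta2.
Des: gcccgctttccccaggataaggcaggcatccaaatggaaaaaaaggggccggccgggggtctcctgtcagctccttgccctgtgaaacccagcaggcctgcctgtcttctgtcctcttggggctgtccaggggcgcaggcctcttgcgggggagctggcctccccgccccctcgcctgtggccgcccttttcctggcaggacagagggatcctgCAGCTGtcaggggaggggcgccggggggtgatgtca
Cspg4: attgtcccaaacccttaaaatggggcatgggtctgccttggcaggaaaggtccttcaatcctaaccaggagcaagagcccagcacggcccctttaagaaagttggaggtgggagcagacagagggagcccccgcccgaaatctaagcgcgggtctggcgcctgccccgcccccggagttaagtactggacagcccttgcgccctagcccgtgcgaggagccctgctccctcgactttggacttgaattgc
Notch3: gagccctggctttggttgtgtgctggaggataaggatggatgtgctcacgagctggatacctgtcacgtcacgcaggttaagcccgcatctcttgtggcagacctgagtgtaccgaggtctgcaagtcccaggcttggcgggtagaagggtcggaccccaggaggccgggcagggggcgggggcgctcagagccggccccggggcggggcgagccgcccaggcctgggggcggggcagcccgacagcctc
Acta2: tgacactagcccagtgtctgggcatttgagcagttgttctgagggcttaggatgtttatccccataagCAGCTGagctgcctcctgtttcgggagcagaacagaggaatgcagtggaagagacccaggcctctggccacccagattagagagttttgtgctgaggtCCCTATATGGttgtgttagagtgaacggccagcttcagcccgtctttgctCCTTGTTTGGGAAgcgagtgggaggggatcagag

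Des and Acta2 each held 1 CAGCTG, which starts 36 bases before the gene start in Des and 182 bases before it in Acta2. Acta2 also held 2 CArG boxes with 1 other letter, starting 84 and 34 bases before the gene start, and 1 TGGGAA that overlaps the nearer of them. Cspg4 and Notch3 held no match to any of these motifs in their windows. Among 32851 mouse promoter windows of this length, 13% held CAGCTG, 21.6% held TGGGAA, 1.47% held a CArG box and 7.24% held one with 1 other letter. Of the 7 promoters of the list that were searched (those of Rgs5, Mcam and Cnn1 besides these 4), 2 held CAGCTG, 1 held TGGGAA, 0 held a CArG box and 1 held the form with 1 other letter.

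Cspg4 (ENSMUSG00000032911) encodes the NG2 proteoglycan, a surface protein of pericytes. It had 6, 135 and 27 reads in null libraries 1 to 3, against 64, 8 and 823 reads in wild-type libraries 1 to 3. Scaled, these were 5.53, 4.28 and 5.31 CPM in the null libraries, against 49.97, 49.1 and 51.4 CPM in the wild-type libraries. The groups lay far apart and the values within each were close, although the depth of the libraries differed widely. Cspg4 fell 10.4-fold in null tumours (log2 fold change -3.38, SE 0.31, 95% interval -4.05 to -2.73, edgeR adjusted p = 0.000125). The call was kept in all 13 alternative fits, with log2 fold changes between -3.54 and -3.25 and a highest adjusted p of 0.00268. Pooled over a group, the level was 4.45 CPM in null tumours (95% exact Poisson interval 3.81 to 5.18) and 51.2 CPM in wild-type tumours (47.9 to 54.7), intervals that cover counting error only.

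Schwann cell and melanocyte markers, of cell types that can also make Cspg4, summed to between 8.29 and 19.1 CPM over 12 genes in null tumours and between 36.9 and 44.8 CPM in wild-type tumours. The melanocyte genes Dct and Tyrp1 and the Schwann cell gene Cdh19 had 0 reads in all 6 libraries, and Sox10 had 2 reads in null tumours in all and 2 in wild-type tumours. Pmel, a melanosome protein, had 0, 34 and 3 reads in null libraries 1 to 3, against 5, 3 and 20 in wild-type libraries 1 to 3. Scaled, Pmel stood at 0, 1.08 and 0.59 CPM in the null libraries, all below the 3.90, 18.4 and 1.25 CPM of the wild-type libraries. It failed the filter on low counts. In wild-type library 2 a single read, as for Sox10, stands at 6.14 CPM, so the list sum of that library rests on few reads. The part of these cells in the Cspg4 difference was not tested.

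Notch3 (ENSMUSG00000038146) encodes the Notch receptor of mural cells. It had 2, 122 and 14 reads in null libraries 1 to 3, against 16, 3 and 145 reads in wild-type libraries 1 to 3. These were 1.84, 3.87 and 2.75 CPM in the null libraries, against 12.5, 18.4 and 9.05 CPM in the wild-type libraries. The groups did not overlap, but wild-type library 2 and null library 1 rest on 3 and 2 reads. Notch3 fell 3.52-fold in null tumours (log2 fold change -1.82, SE 0.46, 95% interval -2.82 to -0.81, edgeR adjusted p = 0.0398). Leaving out any 1 of the 6 libraries ended the call, with adjusted p-values of 0.0618 to 0.164. It also ended when libraries that share a mouse number were summed (0.118 for both pairs and 0.0597 for the wild-type pair alone), when limma-voom took the mouse as a random effect (0.0592) and in DESeq2 (0.0771). An antisense transcript, Gm17276, covers 6.03% of its exon length in GRCm38.

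Pdgfrb (ENSMUSG00000024620) encodes the receptor through which platelet-derived growth factor from endothelial cells recruits pericytes. It had 78.3, 176 and 99.7 CPM in null libraries 1 to 3, against 188, 197 and 143 CPM in wild-type libraries 1 to 3. Null library 2 lay within the wild-type range and the other null libraries below it. The means were 118 ± 51.4 CPM in null and 176 ± 28.9 CPM in wild-type tumours (SD, n = 3 libraries each). The log2 fold change of -0.53 (SE 0.31, 95% interval -1.20 to 0.14) did not pass (edgeR adjusted p = 0.306).

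Rgs5 (ENSMUSG00000026678) encodes a regulator of G protein signalling that marks pericytes. Its level was 55.3, 35.0 and 38.0 CPM in null libraries 1 to 3, against 55.4, 55.3 and 46.9 CPM in wild-type libraries 1 to 3. Null library 1 reached the wild-type level (log2 fold change -0.31, 95% interval -0.89 to 0.27, edgeR adjusted p = 0.498). Mcam (ENSMUSG00000032135), the adhesion molecule CD146 of pericytes and endothelium, had 58.0, 27.7 and 35.0 CPM in null libraries 1 to 3, against 43.7, 30.7 and 48.1 CPM in wild-type libraries 1 to 3. The highest and the lowest Mcam values were both in null libraries (log2 fold change -0.19, 95% interval -0.87 to 0.48, edgeR adjusted p = 0.729), and the sign turned without null library 2 (0.03).

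Des (ENSMUSG00000026208) encodes desmin, an intermediate filament protein of pericytes, smooth muscle and striated muscle. It had 13, 566 and 62 reads in null libraries 1 to 3, against 356, 18 and 2046 reads in wild-type libraries 1 to 3. These were 12.0, 17.9 and 12.2 CPM in the null libraries, against 278, 111 and 128 CPM in the wild-type libraries. The lowest wild-type value was several times the highest null value, and wild-type library 1 stood above the other two. The log2 fold change was -3.61 (SE 0.37, 95% interval -4.41 to -2.81, edgeR adjusted p = 0.00023). It ranged from -3.89 to -3.04 over 13 alternative fits, each of which kept the call, with a highest adjusted p of 0.00626.

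Skeletal muscle markers were lower in the same libraries. Of 24 listed, 20 were tested and 15 fell in null tumours, with 0 higher by edgeR (0 also at an unadjusted p under 0.05, by DESeq2 and by limma-voom) and a median log2 fold change of -3.18. The count was 9 without null library 1, 9 without wild-type library 1 and 8 in limma-voom with the mouse as a random effect. The list summed to between 52.3 and 144 CPM in null tumours and between 584 and 1629 CPM in wild-type tumours. Tnnc1, a troponin of slow muscle and heart, had 0 reads in all null libraries and 0, 0 and 3 reads in wild-type libraries 1 to 3. Myh7, a slow myosin, had 0, 1 and 0 reads in null libraries 1 to 3 and 0 in all wild-type libraries. Both were near absent in either group and failed the filter. Tnnc2, a fast troponin, failed it too, with 0, 2 and 0 reads in null libraries 1 to 3 and 0, 0 and 12 in wild-type libraries 1 to 3. The slow troponins Tnnt1 (log2 fold change -2.15, edgeR adjusted p = 0.0562) and Tnni1 (-2.04, 0.0893) were tested and did not pass. Tnnt1 passed in edgeR without the filter (0.037), and Tnni1 in limma-voom with the mouse as a random effect (0.044). Ttn, the sarcomeric spring titin, fell by 4.58 on the log2 scale (edgeR adjusted p = 0.000289). Ryr1, the muscle calcium release channel, fell by 4.09 (0.000289), Tnnt3, a fast troponin, by 4.20 (0.000614) and Ckm, muscle creatine kinase, by 3.61 (0.00172). All 4 genes passed in each of the 13 alternative fits. Their log2 fold changes there ranged from -5.69 to -4.00 for Ttn and from -4.54 to -3.47 for Ryr1. They ranged from -5.08 to -3.38 for Tnnt3 and from -4.58 to -2.94 for Ckm. The lowest values of Ttn, Tnnt3 and Ckm came with null library 2 left out. Des, which is not in this list, had 10.6, 12.5 and 23.3 reads for every 100 reads of the list in null libraries 1 to 3, against 17.1, 12.4 and 21.9 in wild-type libraries 1 to 3. That ratio overlapped, with means of 15.5 ± 6.87 in null and 17.1 ± 4.72 in wild-type tumours (SD, n = 3 libraries each). The part of muscle in the Des difference was not tested.

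Acta2 (ENSMUSG00000035783) encodes alpha smooth muscle actin, the main actin of contractile mural cells and of activated fibroblasts. It had 262, 11031 and 1884 reads in null libraries 1 to 3, against 567, 61 and 2217 reads in wild-type libraries 1 to 3. These were 241, 350 and 371 CPM in the null libraries, against 443, 375 and 138 CPM in the wild-type libraries. The null values lay inside the wild-type range, which was set by a high library 1 and a low library 3. The means were 321 ± 69.4 CPM in null and 319 ± 160 CPM in wild-type tumours (SD, n = 3 libraries each; log2 fold change 0.04, 95% interval -0.78 to 0.86, edgeR adjusted p = 0.959). The sign turned without wild-type library 3 (-0.38), null library 2 (-0.06) or null library 3 (-0.10). Most wild-type reads came from library 3, where Acta2 was low, so pooled reads gave other levels, 349 CPM in null and 163 CPM in wild-type tumours.

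Tagln (ENSMUSG00000032085) encodes transgelin, an actin-binding protein of smooth muscle. It had 17.5, 18.0 and 14.4 CPM in null libraries 1 to 3, against 49.97, 61.4 and 19.2 CPM in wild-type libraries 1 to 3. The null values were close together and all below wild type, but wild-type library 3 came near them. The log2 fold change of -1.15 (SE 0.40, 95% interval -2.02 to -0.28) had an unadjusted p of 0.0137 and an edgeR adjusted p of 0.104. Tagln passed in the edgeR fit that left out wild-type library 3, at a log2 fold change of -1.69 (adjusted p = 0.0109). In GRCm38 an antisense transcript, Gm48529, covers 62.4% of its exon length and Pcsk7 overlaps 5.43%, and reads of the opposite strand could not be told apart where counting ignored strand.

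Cnn1 (ENSMUSG00000001349) encodes calponin, which restrains smooth muscle contraction, and Myh11 (ENSMUSG00000018830) encodes the smooth muscle myosin heavy chain. Cnn1 had 0, 4 and 6 reads in null libraries 1 to 3, against 0, 0 and 7 reads in wild-type libraries 1 to 3. Myh11 had 0, 26 and 14 reads in null libraries 1 to 3, against 5, 2 and 36 reads in wild-type libraries 1 to 3. Both failed the filter on low counts. Pooled, Cnn1 stood at 0.265 CPM in null (95% exact Poisson interval 0.127 to 0.488) and 0.401 CPM in wild-type tumours (0.161 to 0.826). Pooled Myh11 stood at 1.06 CPM in null (0.758 to 1.44) and 2.46 CPM in wild-type tumours (1.78 to 3.32). These intervals cover counting error only, and the scaled Myh11 values of the libraries overlapped between the groups. The mean over libraries gave Cnn1 the opposite order, 0.436 CPM in null and 0.146 CPM in wild-type tumours. In a fit with no filter their log2 fold changes were 0.48 (edgeR adjusted p = 0.863) for Cnn1 and -1.41 (0.385) for Myh11, and neither passed at this depth.

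**Figure D2:**
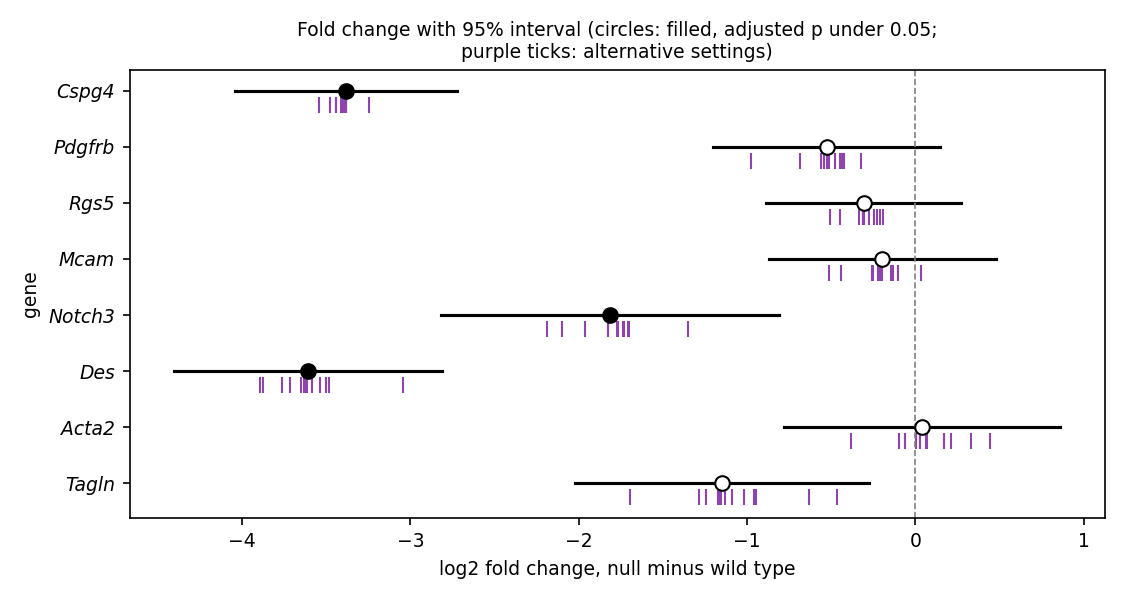
Log2 fold change (null minus wild type) of the 8 tested genes with its 95% interval, filled circles for genes with an adjusted p under 0.05 and purple ticks for the 13 alternative fits (12 for Notch3). Cspg4 and Des lie at or below -3.04 in each fit, Acta2 and Mcam have ticks on both sides of 0, and the ticks of Tagln spread from -1.69 to -0.46.

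Scaled by exon length, the order of levels differed between the groups mainly through Des. In null tumours the means per kilobase were 146 ± 31.6 CPM for Acta2, 21.6 ± 9.38 for Pdgfrb, 12.0 ± 4.72 for Mcam, 9.41 ± 2.41 for Rgs5, 8.36 ± 0.987 for Tagln and 3.74 ± 0.901 for Des (SD, n = 3 libraries). Cspg4 (0.422 ± 0.056), Notch3 (0.349 ± 0.125), Cnn1 (0.159 ± 0.237) and Myh11 (0.157 ± 0.186) followed. In wild-type tumours Acta2 also led with 145 ± 72.8 CPM per kilobase, followed by Des (45.8 ± 24.5), Pdgfrb (32.1 ± 5.28), Tagln (21.9 ± 11), Mcam (12.2 ± 2.7), Rgs5 (11.6 ± 1.08), Cspg4 (4.2 ± 0.094), Notch3 (1.65 ± 0.586), Myh11 (0.809 ± 0.708) and Cnn1 (0.0532 ± 0.0922). By the larger of the neighbours' SDs, the order did not separate Mcam from Rgs5, Rgs5 from Tagln, Cspg4 from Notch3, Notch3 from Cnn1 or Cnn1 from Myh11 in null tumours. In wild-type tumours it did not separate Des from Pdgfrb, Pdgfrb from Tagln, Tagln from Mcam or Mcam from Rgs5.

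Ratios within a library do not depend on how libraries are scaled. Des had 4.96, 5.13 and 3.29 reads per 100 Acta2 reads in null libraries 1 to 3, against 62.8, 29.5 and 92.3 in wild-type libraries 1 to 3. The groups did not overlap, and the log2 ratio was -3.65 (two-sided exact permutation p = 0.1, which is as low as 3 against 3 libraries can go). Pdgfrb had 32.4, 50.4 and 26.9 reads per 100 Acta2 reads in null libraries 1 to 3, against 42.5, 52.5 and 103 in wild-type libraries 1 to 3, with overlap (log2 ratio -0.80, two-sided exact permutation p = 0.2). The remaining ratios are descriptions. Tagln per 100 Acta2 reads was 7.25, 5.14 and 3.88 in null libraries 1 to 3, against 11.3, 16.4 and 13.8 in wild-type libraries 1 to 3, so wild-type library 3, low for both genes, joined its group on this scale. Cspg4 per 100 Acta2 reads averaged 1.65 ± 0.565 in null and 20.5 ± 14.4 in wild-type tumours, and Notch3 0.871 ± 0.204 in null and 4.76 ± 1.86 in wild-type tumours (SD, n = 3 libraries each). Myh11 had 0, 0.236 and 0.743 reads per 100 Acta2 reads in null libraries 1 to 3, against 0.882, 3.28 and 1.62 in wild-type libraries 1 to 3, so the groups did not overlap on this scale, although these rest on 0 to 36 reads.

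**Figure D3:**
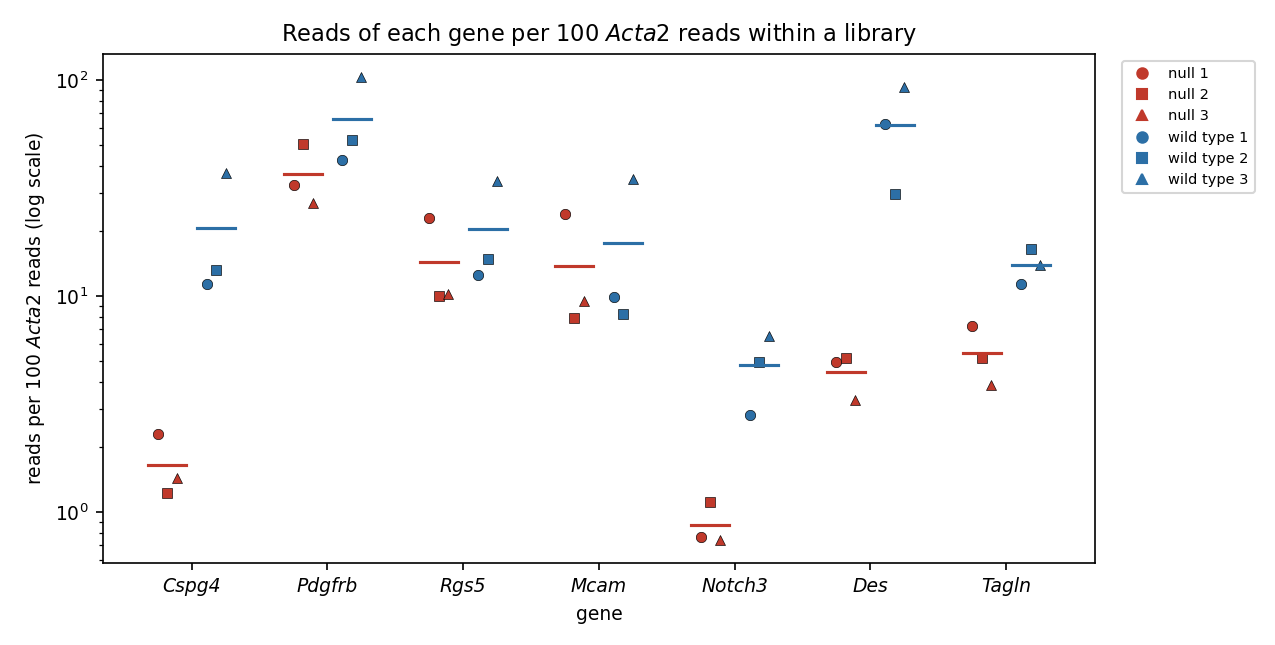
Reads of 7 genes per 100 Acta2 reads in each library on a log scale, null in red to the left of wild type in blue, with a line at the mean. Null points lie below all wild-type points for Cspg4, Notch3, Des and Tagln, and wild-type library 3 (blue triangle) is the highest point for each gene but Tagln.

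Set against Pdgfrb, Cspg4 had 7.06, 2.43 and 5.33 reads per 100 Pdgfrb reads in null libraries 1 to 3, against 26.6, 25.0 and 36.0 in wild-type libraries 1 to 3. Notch3 per 100 Pdgfrb reads averaged 2.44 ± 0.292 in null and 7.45 ± 1.67 in wild-type tumours, while Rgs5 averaged 42.9 ± 25.7 in null and 30.1 ± 2.41 in wild-type tumours (SD, n = 3 libraries each). Cspg4 and Notch3 were thus lower relative to Pdgfrb, and Rgs5 overlapped. The 3 genes closest to Pdgfrb in profile were mt-Nd4, Fbxl14 and Col1a1, the last listed here as a fibroblast gene. Genes of the fibroblast list went both ways. All null libraries lay above wild type for 4 of them and below it for 5. Which cells supplied the Pdgfrb reads was not tested. Set against the 16 endothelial genes, Cspg4 had 1.06, 1.01 and 1.16 reads per 100 endothelial reads in null libraries 1 to 3, against 9.50, 9.52 and 14.1 in wild-type libraries 1 to 3. Rgs5 had 10.6, 8.27 and 8.26 per 100 endothelial reads in null libraries 1 to 3, against 10.5, 10.7 and 12.8 in wild-type libraries 1 to 3.

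Other contractile genes of smooth muscle showed 1 call. Of 20 listed 11 were tested, with a median log2 fold change of -0.61, and Mylk, the kinase that activates smooth muscle myosin, fell to 39.0 ± 4.55 CPM in null, against 115 ± 19.9 CPM in wild-type tumours (SD, n = 3 libraries each; log2 fold change -1.54, edgeR adjusted p = 0.00404). Mylk passed in all 13 alternative fits (highest adjusted p = 0.0253). Smtn, the actin-associated protein smoothelin, just missed (log2 fold change -1.06, edgeR adjusted p = 0.055) and passed in DESeq2 (0.0386), without the filter (0.042) and without wild-type library 1 (0.0396). None of the 11 was called higher (0 also at an unadjusted p under 0.05, by DESeq2 and by limma-voom). Of 8 regulators 5 were tested, with a median of -0.66. Srf, which encodes SRF, averaged 62.6 ± 12.7 CPM in null and 113 ± 23.7 CPM in wild-type tumours (SD, n = 3 libraries each). It did not pass (log2 fold change -0.79, edgeR adjusted p = 0.0859). Gata6, a transcription factor of smooth muscle and other tissues, fell (log2 fold change -2.14, edgeR adjusted p = 0.0474). Gata6 rests on 1, 40 and 4 reads in null libraries 1 to 3, against 4, 1 and 89 in wild-type libraries 1 to 3, and lost its call in 7 of the 9 alternative fits that tested it (highest 0.25). It lost the call in each of the 3 such fits that left out 1 library, without null library 1 (0.134) and wild-type libraries 1 (0.0553) and 2 (0.0777).

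No other pericyte gene passed. Of 19 listed 11 were tested, with a median log2 fold change of -0.57 (edgeR: 0 called, 1 higher and 1 lower at an unadjusted p under 0.05, 0 by DESeq2 and 0 by limma-voom). Anpep, the peptidase CD13, averaged 17.8 ± 7.91 CPM in null and 19.7 ± 7.96 CPM in wild-type tumours, and Ednra, an endothelin receptor, 19.5 ± 5.59 CPM in null and 12.7 ± 2.74 CPM in wild-type tumours (SD, n = 3 libraries each). The list summed to between 100 and 135 CPM in null and between 115 and 173 CPM in wild-type tumours. Without wild-type library 1 Rgs4 was called higher (log2 fold change 1.53, edgeR adjusted p = 0.0444), and without wild-type library 3 Cd248 was called lower (-1.89, 0.0462).

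Of 16 genes listed for mural cell recruitment, which are ligands, receptors and Notch target genes, 14 were tested. Angpt1, the Tie2 ligand that mural cells secrete, was called higher. It averaged 126 ± 47.3 CPM in null and 56.6 ± 36.2 CPM in wild-type tumours (SD, n = 3 libraries each; log2 fold change 1.47, edgeR adjusted p = 0.0437), and the groups overlapped. The call was lost without null library 1 or 3 or wild-type library 1 or 3 (highest adjusted p = 0.165) and with the filter at 10 CPM. Pdgfb, the endothelial ligand of PDGFRB, averaged 16.3 ± 5.57 CPM in null and 34.9 ± 21.4 CPM in wild-type tumours (SD, n = 3 libraries each), with overlap. It just missed (log2 fold change -1.28, edgeR adjusted p = 0.0554) and was called lower without the filter (0.0412), without wild-type library 2 (0.0375) and with the wild-type pair of a shared mouse number summed (0.0452). Eng, the receptor endoglin, was called lower without wild-type library 3 (-1.26 on the log2 scale, adjusted p = 0.0425). In the edgeR fit of all 6 libraries the list had 0 called lower (2 at an unadjusted p under 0.05, 0 by DESeq2 and 0 by limma-voom) and a median of 0.04. Of the 16 endothelial genes all were tested and 0 passed by edgeR (0 higher and 1 lower at an unadjusted p under 0.05, 0 by DESeq2 and 0 by limma-voom), with a median of -0.12. Egfl7, an endothelial secreted factor, averaged 91.9 ± 26.6 CPM in null and 61.8 ± 9.46 CPM in wild-type tumours, and Plvap, of endothelial diaphragms, 62.6 ± 9.4 CPM in null and 80.5 ± 36.9 CPM in wild-type tumours (SD, n = 3 libraries each).

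Fibroblast genes, of cells that can also make Acta2 and Tagln, moved both ways. Of 12 tested 2 rose and 4 fell, with a median of -0.49. The count that fell was 2 without null library 3, and the count that rose was 1 without null library 1, null library 3 or wild-type library 2 and with libraries of a shared mouse number summed. Lum, the matrix proteoglycan lumican, rose to 476 ± 102 CPM in null, against 66.9 ± 19.6 CPM in wild-type tumours (edgeR adjusted p = 0.000384). Thy1, a surface glycoprotein (log2 fold change -1.62, edgeR adjusted p = 0.00501), Fbn1, fibrillin (-1.83, 0.0061), and Col15a1, a basement membrane collagen (-1.49, 0.0128; 0.0614 without null library 3), fell. Of 8 tested myofibroblast and matrix genes 2 fell and 1 rose. Tnc, the matrix protein tenascin C, fell (log2 fold change -1.94, edgeR adjusted p = 0.0039), as did Ltbp2, a microfibril-associated protein (-2.37, 0.0135). Over the 13 alternative fits the value of Ltbp2 ranged from -3.22, without null library 2, to -1.705. Its call was lost without null library 1 (0.0666) and in limma-voom with the mouse as a random effect (0.079). Postn, the matrix protein periostin, rose (1.28, 0.0357), a call lost without wild-type library 2 or any 1 null library (highest 0.121) or with libraries of a shared mouse number summed (0.166 for both pairs). The fibroblast list summed to between 13002 and 15494 CPM in null and between 7228 and 13348 CPM in wild-type tumours. Its largest term was Col3a1, with 6930 to 8193 CPM in null and 3036 to 7231 CPM in wild-type tumours. The sum was lowest in wild-type library 3, where Acta2 and Tagln were lowest too among wild-type libraries. Among wild-type libraries Col1a2, Fap and Thy1 were not lowest in library 3, while the other genes of the list were. The part of fibroblasts in the Acta2 and Tagln values was not tested.

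**Figure D4:**
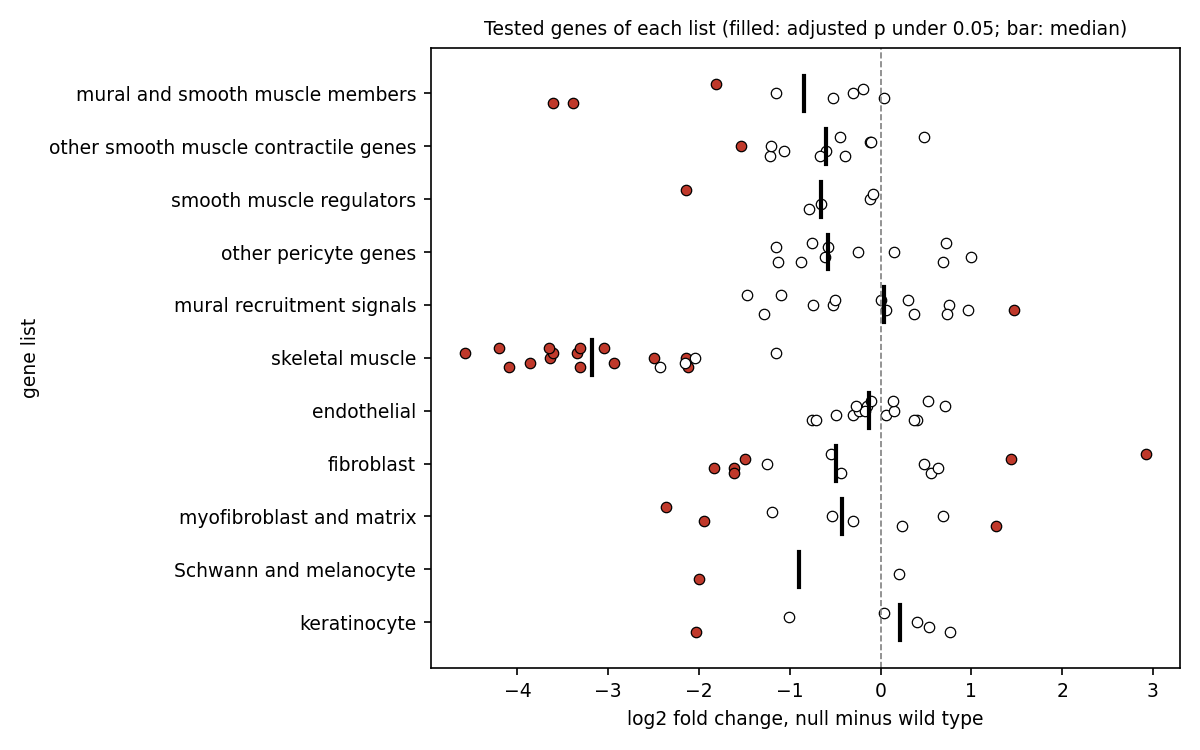
Log2 fold change (null minus wild type) of the tested genes of each list, filled red at an adjusted p under 0.05, with a bar at the list's median. The skeletal muscle list lies furthest to the left (median -3.18), the lists of other pericyte genes and of endothelial genes hold no filled point, and the fibroblast list has filled points on both sides of 0.

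Likeness of profiles over the 6 libraries was measured by the root mean square distance of centred log2 CPM, with 3 reads added to each count. The genes closest to Des were Myh1, a fast skeletal myosin (0.39), Pygm, muscle glycogen phosphorylase (0.43), and Cilp, a cartilage matrix protein (0.44). The median distance from Des over all tested genes was 1.76. Closest to Acta2 were Hacd1 (0.10), Tubb6, a tubulin (0.12), and Ctss, the protease cathepsin S (0.13), against a median of 0.68. Closest to Pdgfrb were mt-Nd4, a mitochondrial respiratory chain subunit (0.07), Fbxl14 (0.12) and Col1a1, the fibrillar collagen chain (0.12), against a median of 0.62. With 6 libraries of unequal depth these distances describe likeness only. In wild-type library 2 the 3 added reads exceed the 2 measured reads of Myh1, Pygm and Hacd1, so the order can depend on them.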

How the data were processed

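The deposited values are raw counts of reads for each Ensembl mouse gene, with 1 file for each library and 5 closing lines for reads in no gene, which stayed out of all library sizes and tests. Those lines held 4.63% to 12% of listed reads as outside genes, 1.72% to 2.11% as ambiguous and 32.9% to 40% as aligned more than once. Per the submitters' processing notes, TopHat2, Cuffdiff, DESeq2 and build mm9 were used, with no role or version. The sources used here do not give the counting program, its strand setting or its annotation. Symbols came from GENCODE M21 by identifier (32919 of 37991, 86.6%). Exon lengths and overlaps came from GENCODE M21 on GRCm38 and promoters from RefSeq on GRCm38.p6, builds other than the submitters' mm9, so their coordinates belong to these annotations only and were never joined to positions in the files. Promoters were searched for all genes of the list with an entry, outside chromosome 18. Windows of 50 bases of the longest coding transcript were shared with other genes for 0.353% (Acta2), 0.4% (Myh11), 0.0879% (Notch3) and 0% of windows (the other 7 genes).

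Null and wild type were compared with edgeR 4.0.16 in R 4.3.3 (quasi-likelihood test, robust fit, TMM scaling, default expression filter, 3 against 3 libraries), with Benjamini-Hochberg adjustment over all tested genes at 0.05 and log2 fold changes as null minus wild type. Each SE was the fold change divided by the root of its F statistic. The fit was tested on simulated counts of independent libraries, which cannot show how a mouse shared by libraries affects the p-values. CPM are TMM scaled, and within-library ratios used an exact permutation test on log2 counts with 0.5 added. Alternatives were DESeq2 1.42.0 (its size factors, its test), no filter, at least 10 CPM in 3 libraries, each library left out, libraries of a shared mouse number summed, and limma-voom (limma 3.58.1) with the mouse as a random effect. Mouse numbers are those of the titles, and the file of null library 3 is named for a different one.

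The genes and lists were chosen with earlier results of these data known. Named genes were the 10 listed genes, Fermt1, up to 4 genes per other list with the smallest adjusted p (the 2 most abundant where none passed) and the 3 genes nearest in profile to Des, Acta2 and Pdgfrb. Of the genes this rule names, 1 is not reported here. Others were chosen after their values were seen: genes at 0 reads, Sox10, Pmel, Smtn, Pdgfb, Rgs4, Cd248, Eng and those under other observations. The same holds for Srf, Tnnt1, Tnni1, Tnnc2, Col3a1, Col1a2 and Fap.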

Additional observations from a re-analysis of the deposited data

How the results depend on the processing

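The number of mural genes called lower, 3 in the main comparison, was 2 or 3 in all 13 alternative fits, and 0 were called higher in each. Cspg4 and Des passed in all 13, and Notch3 in 2 of the 12 that tested it. The number of all genes called moved more: 419 were lower and 269 higher, and leaving out 1 library gave 120 to 434 lower and 59 to 421 higher. Summing the wild-type pair of a shared mouse number gave 165 higher, and limma-voom with the mouse as a random effect gave 533 higher. The log2 ratio of Des to Acta2 reads ranged from -4.10 to -3.29 without 1 library, and that of Pdgfrb to Acta2 from -1.06 to -0.42. Directions turned for 7 genes, none of which passed in the main comparison: leaving out 1 library gave log2 fold changes of -0.51 to 0.034 for Mcam, -0.38 to 0.45 for Acta2, -0.71 to 0.026 for Anpep, -0.76 to 0.31 for Plvap, -0.23 to 1.03 for Hacd1, -0.31 to 0.63 for Tubb6 and -0.33 to 0.32 for Ctss. Plvap also turned with the mouse as a random effect (0.13) and Ctss with the filter at 10 CPM (-0.0073). The cause was not tested. No paired analysis was possible because the labels give no number that links a null to a wild-type library. The depth of wild-type library 2 (161711 reads) limits genes under its floor of 18.6 CPM, such as Notch3 and Myh11.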

Other observations

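Some genes of the smooth muscle and pericyte lists were too low for the filter and lay higher in null tumours, a selection made after their values were seen. Foxf1, a transcription factor of visceral smooth muscle and mesenchyme, had 2, 35 and 2 reads in null libraries 1 to 3, against 0, 0 and 1 read in wild-type libraries 1 to 3. Ppp1r14a, an inhibitor of myosin phosphatase in smooth muscle, had 6, 109 and 12 reads in null libraries 1 to 3, against 3, 0 and 7 reads in wild-type libraries 1 to 3. Agtr1a, an angiotensin receptor of mural cells, had 2, 27 and 8 reads in null libraries 1 to 3, against 0, 0 and 11 reads in wild-type libraries 1 to 3. In a fit with no filter none of these 3 passed (edgeR adjusted p = 0.141 for Foxf1, 0.205 for Ppp1r14a and 0.5 for Agtr1a). Itga8, an integrin subunit of smooth muscle, had 3, 60 and 34 reads in null libraries 1 to 3, against 0, 1 and 0 reads in wild-type libraries 1 to 3. It passed with no filter (edgeR adjusted p = 0.0471), but the single wild-type read lies in the shallowest library, so scaled values overlapped. Without that library, wild-type library 2, it passed as well (edgeR adjusted p = 0.0314). Its means over all libraries were 3.78 ± 2.55 CPM in null and 2.05 ± 3.55 CPM in wild-type tumours (SD, n = 3 libraries each).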
